A study of Mus musculus with 4 samples.

Results

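Ribosomal protein genes encode the proteins of the large and the small subunit of the cytoplasmic ribosome. They were taken from the gene annotation by name: protein-coding genes called Rpsa, Rplp0, Rplp1 or Rplp2, or with a symbol made of Rpl or Rps, a number and the usual letters. The Rps6k kinases, Rps19bp1 and names that mark a pseudogene were left out. This gave 84 of 35580 genes, 52 for the large subunit and 32 for the small subunit, on 19 chromosomes and with 4 on the X chromosome. A further 6 symbols of the same form, Rps4l, Rps12l1, Rpl32l, Rpl6l, Rps3a2 and Rps3a3, are annotated as pseudogenes and were not counted as members.

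RNA was sequenced from Mmp3-positive cells and from Mmp3-negative cells, both taken from the stromal vascular fraction of mouse subcutaneous fat. This fraction holds the cells of the tissue other than the fat-filled adipocytes, and Mmp3 encodes a secreted matrix metalloproteinase. Both groups came from C57BL/6 mice of wild-type genotype, and no treatment was named. The labels name Set 1 and Set 2 in both groups, with no word on pairing, and the 2 libraries of each group were numbered accordingly. The labels do not say whether these came from separate animals, so p-values measure only the spread between the libraries, which may be technical; nor do they say how the cells were sorted beyond a reagent code.

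A ribosome takes 1 copy of most of these proteins, so cells make them in balanced amounts from many unlinked genes. Most of their mRNAs begin with a short run of pyrimidines, the terminal oligopyrimidine or TOP motif, through which mTOR signalling sets how strongly they are translated. Because the mRNAs are short, abundant and made in every cell, they have been copied back into mammalian genomes very often. The resulting processed pseudogenes lack introns and can be almost identical to the parent mRNA, so a short read may fit the gene and several of its copies equally well.

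The libraries held 19026779 and 20286221 estimated counts in the Mmp3-positive group, against 18629081 and 17693755 in the Mmp3-negative group. Mmp3 itself had 4161 and 3409 normalised CPM, the count in units of a scaled library total, in the Mmp3-positive libraries, against 106 and 131 in the Mmp3-negative libraries. Stromal fibroblast markers summed to 28991 and 36870 CPM in the Mmp3-positive libraries, against 21012 and 30243 in the Mmp3-negative libraries and overlapped between the groups. The 6 mural cell markers summed to 84.0 and 82.8 CPM in Mmp3-positive cells, against 657 and 554 in Mmp3-negative cells, and the 7 macrophage and leukocyte markers to 31.2 and 27.9 CPM in Mmp3-positive cells, against 174 and 117 in Mmp3-negative cells. The 6 endothelial markers summed to 218 and 209 CPM in Mmp3-positive cells, against 365 and 247 in Mmp3-negative cells, so that these 3 marker sums were all lower in the Mmp3-positive libraries. The 4 adipocyte markers summed to 11.4 and 9.26 CPM in Mmp3-positive cells, against 9.02 and 20.8 in Mmp3-negative cells, and of these Cidec and Lep had 0 counts in every library. The 4 Schwann cell markers summed to 8.68 and 3.16 CPM in Mmp3-positive cells, against 21.0 and 5.88 in Mmp3-negative cells.

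With edgeR, the main test, 0 ribosomal protein genes were called higher and 0 lower, where 0.00705% and 0.0141% of all genes were. DESeq2 called Rpl13a, Rpl22, Rpl31, Rpl5 and Rps24 higher and Rps12 lower, where it called 5.46% of all genes higher and 4.18% lower. As a group the ribosomal protein genes took a slightly larger share of the counts in Mmp3-positive cells, in both subunits alike. Most members lay within a narrow band of small differences. The 3 members farthest outside that band were Rpl5, Rpl10 and Rps12. Like 81 of the 84 members they have sequence-matched pseudogenes, and their differences were much smaller when gene and pseudogenes were counted together.

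Ribosomal protein genes held 1.96% and 1.93% of all estimated counts in the Mmp3-positive libraries, against 1.62% and 1.69% in the Mmp3-negative libraries. The 2 groups did not overlap, and the ratio of their means was 1.17. The large subunit took 1.17% and 1.18% in Mmp3-positive cells, against 0.978% and 1.04% in Mmp3-negative cells, a ratio of 1.16. The small subunit took 0.791% and 0.745% in Mmp3-positive cells, against 0.640% and 0.651% in Mmp3-negative cells, a ratio of 1.19. These are shares of sequenced RNA in bulk samples, in which fewer cells of a type and less RNA per cell cannot be told apart. The groups also differed in the mural, macrophage and endothelial marker sums given above. Of the 11 stromal fibroblast markers, 10 had a positive log2 fold change, where 51.1% of all genes did, with a median of 0.44. Both Mmp3-positive libraries lay above both Mmp3-negative ones in 7 of them, where 22.5% of all genes did so. With edgeR 0 were called, and DESeq2 called 3 higher, where it called 5.46% of all genes higher. The part of these markers in the members' difference was not tested.

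The balance between the subunits was close to the same in both groups. Large-subunit genes had 1.48 and 1.59 counts for each small-subunit count in the Mmp3-positive libraries, against 1.53 and 1.60 in the Mmp3-negative libraries. The values of the groups overlapped. On the TPM scale, which corrects for transcript length, the same ratio was 1.56 and 1.69 in the Mmp3-positive libraries, against 1.62 and 1.68 in the Mmp3-negative libraries. The share of all TPM held by the members was 4.97% and 4.56% in Mmp3-positive cells, against 2.48% and 4.45% in Mmp3-negative cells. It cannot be read across libraries, because 3 short entries with equal values, none of them a member, took 14.99% and 23.2% of TPM in Mmp3-positive cells, against 49.7% and 8.10% in Mmp3-negative cells.

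**Figure D1:**
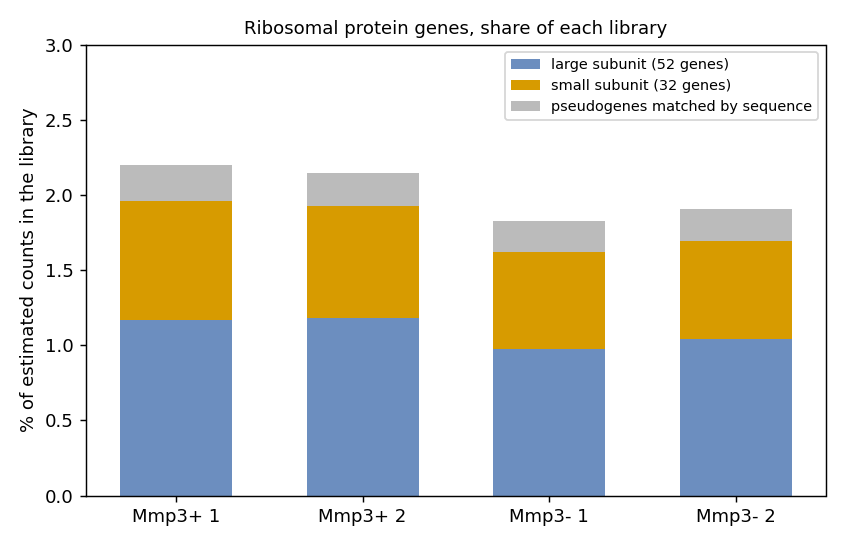
Share of each library's estimated counts, in percent, held by large-subunit genes, small-subunit genes and pseudogenes matched to them by sequence, as stacked bars for the 4 libraries. Members without pseudogenes reach 1.96% and 1.93% in the Mmp3-positive libraries, above the 1.62% and 1.69% of the Mmp3-negative libraries, and the 2 subunits keep about the same proportion.

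Counts were tested with edgeR's quasi-likelihood test over all 14185 genes that passed a filter on low counts, and p-values were adjusted over all of them by Benjamini-Hochberg with a threshold of 0.05. Of the 84 members, 80 passed the filter, 48 of the large and 32 of the small subunit. The other 4, Rpl10l, Rpl3l, Rpl39l and Rpl22l1, are described among the paralogs below. With edgeR 0 members were higher and 0 lower, where 0.00705% of all genes tested were higher and 0.0141% lower. At an unadjusted p under 0.05 there were 5 higher members and 1 lower member, where 5.62% of all genes were higher and 3.25% lower. DESeq2's Wald test called the 5 higher members and 1 lower member named above, where it called 5.46% of all genes higher and 4.18% lower. The limma fit on log2(TPM + 1) called 0 members. It also called 0 of all 14185 genes, so its 0 says nothing particular about the members. Without Mmp3-negative replicate 2 edgeR called Rpl5, Rpl10, Rpl21 and Rps13 higher and Rps12 lower, 4 and 1, where it called 1.45% of all genes higher and 0.709% lower. The Mmp3-negative group is then 1 library, assumed to vary as the Mmp3-positive pair does, and that library holds 2 counts of Rpl10 and 7 of Rps13. Without Mmp3-negative replicate 1 it called 1 higher, Rpl5, and 0 lower, where it called 1.44% and 0.602%, under the same assumption.

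The median log2 fold change, Mmp3-positive over Mmp3-negative, was 0.24 over the 80 members, against 0.02 over all genes tested. It was 0.24 for the large and 0.27 for the small subunit. A positive value was found for 66 of the 80 members, where 51.1% of all genes were positive. Differences of more than 2-fold either way were found for 6 members, where 30.9% of all genes, not matched for abundance, went that far. On the log2 scale 60 members lay within 0.5 of 0. In 39 members, 24 large and 15 small, both Mmp3-positive libraries lay above both Mmp3-negative ones, where 22.5% of all genes did so. In 3 members, Rpl36a, Rps12 and Rps7, both Mmp3-positive libraries lay below, where 17.3% of all genes did so. The direction of Rpl36a turned with its sequence-matched pseudogenes added (0.07, against -0.16 alone) and with an offset for transcript length (0.02), and that of Rps12 with its named pseudogenes added (0.02).

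The members' excess over all genes was smallest without 1 library, Mmp3-negative replicate 1. It was the lowest library for 43 of the 80 members and Mmp3-negative replicate 2 for 28, against 3 for Mmp3-positive replicate 1 and 6 for Mmp3-positive replicate 2. Without Mmp3-negative replicate 1 the members' median was 0.20 while that of all genes was 0.17, so that the excess over all genes was 0.03, against 0.22 with all 4 libraries. Most of this came from the median of all genes, taken over 16278 genes in place of 14185, while the members' own median moved by little and their ratio of count shares was 1.15, against 1.17. Large-subunit genes were then 0.01 below all genes and small-subunit genes 0.06 above. Leaving out Mmp3-negative replicate 2 also gave a median of all genes of 0.17, with an excess of 0.14, and leaving out Mmp3-positive replicate 1 or 2 gave 0.27 or 0.26. The 3 short entries, each 226 bases long, also held 0.906% and 1.48% of the counts in Mmp3-positive cells, against 4.82% and 0.459% in Mmp3-negative cells, so that the same Mmp3-negative library stood apart there. The part of this in the members' levels was not tested. The members varied less between replicates than all genes tested, a comparison that was not matched for abundance. The median difference between the 2 libraries of a group, on the log2 scale, was 0.19 over members and 0.48 over all genes in Mmp3-positive cells. In Mmp3-negative cells it was 0.42 over members and 0.76 over all genes.

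**Figure D2:**
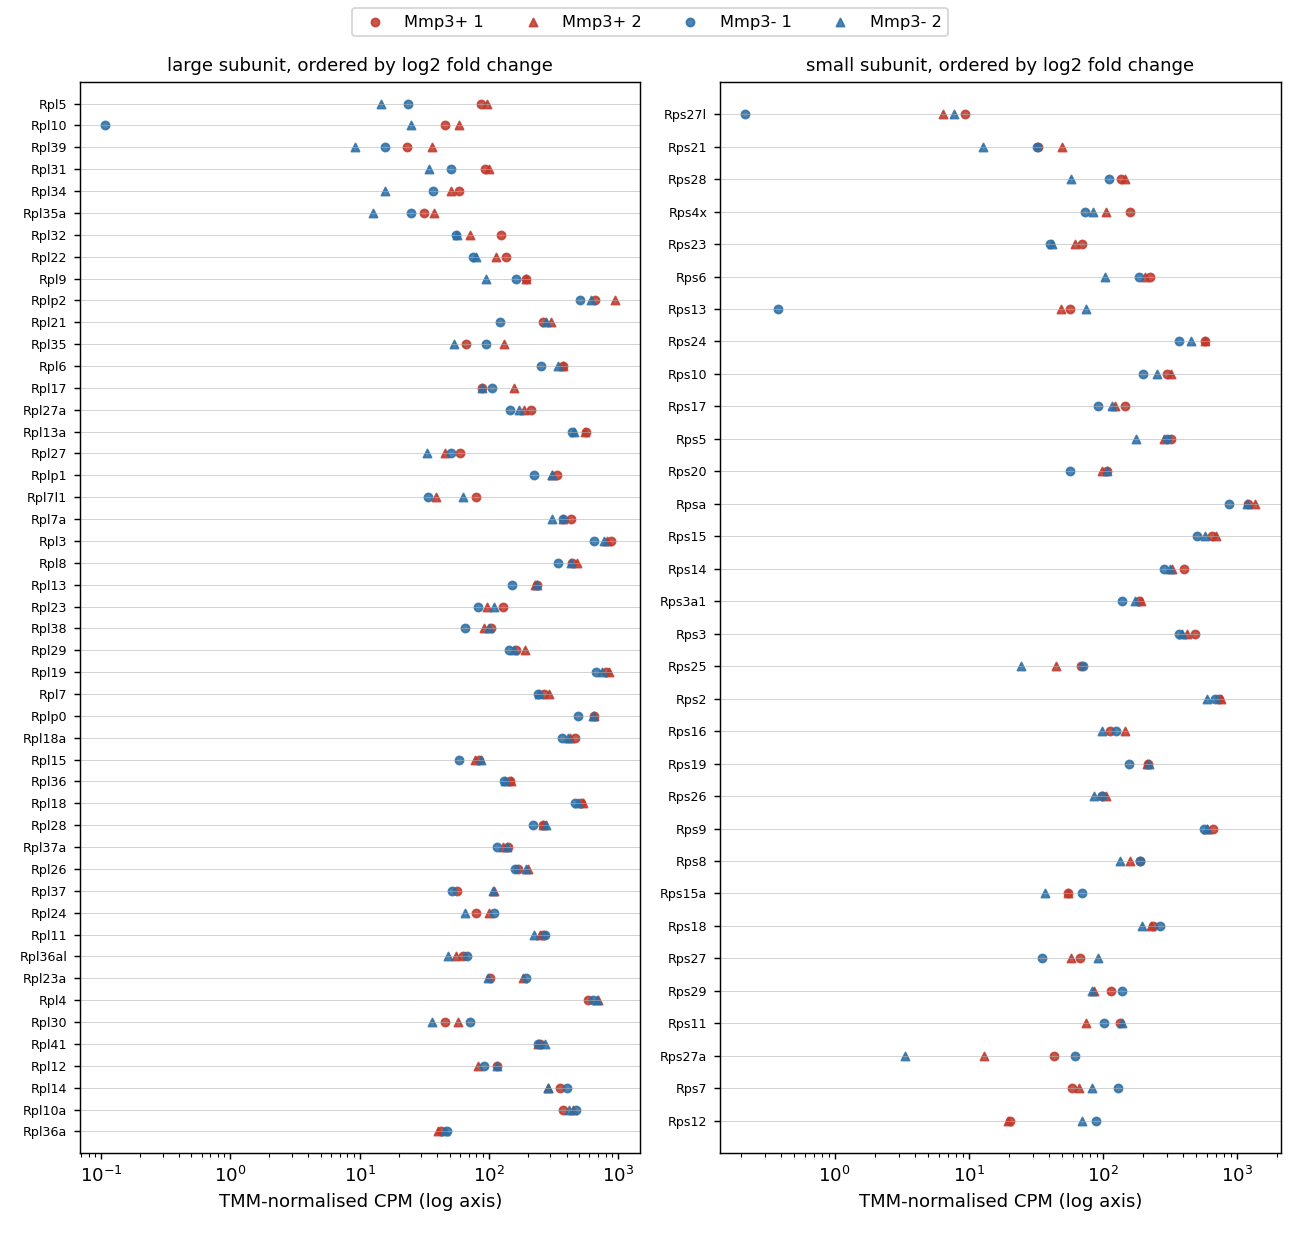
Normalised CPM of the 80 tested members in each of the 4 libraries, on a log axis, with large-subunit genes on the left and small-subunit genes on the right, each ordered by log2 fold change. Most rows are tight groups of 4 points, while Rpl10, Rps13 and Rps27l lie at 0.108, 0.378 and 0.216 CPM in the first Mmp3-negative library.

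The most abundant members per transcript length were compared within each library, as a percentage of the TPM of all 84 members. Rplp2, which with Rplp0 and Rplp1 forms the stalk that recruits elongation factors to the large subunit, came first with a mean of 6.94%. Rps15 and Rpl28 followed with 5.01% and 3.68%, then Rpl19 with 3.66% and Rpl13a with 3.51%; an equal split would give each gene 1.19%. The 10 highest members held 37.5% of the total, and 16 members held 50%.

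The stalk genes and Rpsa, the small-subunit protein also known as the laminin receptor precursor, were all abundant. Rpsa (chromosome 9, 120127689 to 120132369 on GRCm38) had 1207 and 1371 CPM in the Mmp3-positive libraries, against 869 and 1202 in the Mmp3-negative libraries. Rplp2 had 659 and 947 CPM in Mmp3-positive cells, against 507 and 617 in Mmp3-negative cells. Both genes had every Mmp3-positive library above every Mmp3-negative library, though Rpsa by little in the closest pair. The log2 fold change was 0.32 with a standard error of 0.20 for Rpsa (edgeR adjusted p = 0.84) and 0.52 with a standard error of 0.22 for Rplp2 (edgeR adjusted p = 0.603). Rplp0 had 649 and 648 CPM in Mmp3-positive cells, against 492 and 636 in Mmp3-negative cells. Rplp1 had 338 and 311 CPM in Mmp3-positive cells, against 224 and 309 in Mmp3-negative cells. In both of these the second Mmp3-negative library came close to the Mmp3-positive ones and the first lay well below.

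Other abundant members of the large subunit differed little. Rpl13a, also known for a role outside the ribosome in silencing inflammatory mRNAs, had 568 and 555 CPM in Mmp3-positive cells, against 441 and 458 in Mmp3-negative cells, a log2 fold change of 0.32 with a standard error of 0.14 (edgeR adjusted p = 0.619). Rpl19 had 811 and 844 CPM in Mmp3-positive cells, against 673 and 749 in Mmp3-negative cells. Rpl28 had 262 and 264 CPM in Mmp3-positive cells, inside the Mmp3-negative values of 218 and 275. At the low end of the large subunit, Rpl10a had 375 and 444 CPM in Mmp3-positive cells, against 473 and 416 in Mmp3-negative cells, and Rpl14 had 357 and 286 CPM in Mmp3-positive cells, against 401 and 289 in Mmp3-negative cells. Their log2 fold changes of -0.12 and -0.10 were smaller than their standard errors of 0.17 and 0.23.

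In the small subunit, Rps24, whose human form is mutated in some patients with Diamond-Blackfan anaemia, had 583 and 582 CPM in Mmp3-positive cells, against 373 and 455 in Mmp3-negative cells. The Mmp3-positive libraries were nearly equal and stood clear of the other group, with a log2 fold change of 0.49 and a standard error of 0.17 (edgeR adjusted p = 0.48). Rps15 had 651 and 699 CPM in Mmp3-positive cells, against 507 and 579 in Mmp3-negative cells, and Rps9 had 664 and 600 CPM in Mmp3-positive cells, against 568 and 599.9 in Mmp3-negative cells. Rps28 had 136 and 147 CPM in Mmp3-positive cells, against 112 and 57.6 in Mmp3-negative cells, a log2 fold change of 0.74 with a standard error of 0.35. Rps21 had 32.9 and 49.6 CPM in Mmp3-positive cells, against 32.5 and 12.7 in Mmp3-negative cells, a log2 fold change of 0.87 with a standard error of 0.61. In both, the second Mmp3-negative library was far below the other 3.

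Rpl22, Rps4x, Rpl31 and Rpl39 had differences that were shared by both libraries of each group. Rpl22, an RNA-binding protein of the large subunit with a close paralog, had 136 and 114 CPM in Mmp3-positive cells, against 75.2 and 79.8 in Mmp3-negative cells (log2 fold change 0.69 with a standard error of 0.23 and an edgeR adjusted p of 0.48). Rps4x, encoded on the X chromosome, had 159 and 106 CPM in Mmp3-positive cells, against 74.1 and 84.6 in Mmp3-negative cells (log2 fold change 0.74 with a standard error of 0.28 and an edgeR adjusted p of 0.519). Rpl31 had 92.8 and 101 CPM in Mmp3-positive cells, against 50.7 and 34.3 in Mmp3-negative cells (log2 fold change 1.19 with a standard error of 0.31 and an edgeR adjusted p of 0.48). Rpl39, a small protein at the exit tunnel of the large subunit, had 23.4 and 36.0 CPM in Mmp3-positive cells, against 15.7 and 9.17 in Mmp3-negative cells (log2 fold change 1.26 with a standard error of 0.67 and an edgeR adjusted p of 0.743). With edgeR 0 of the 4 passed the threshold, and DESeq2 called Rpl22 and Rpl31, where it called 5.46% of all genes higher. In each both Mmp3-positive libraries lay above both Mmp3-negative ones, where 22.5% of all genes did so. The 4 were named for a small p or a high log2 fold change, so this follows in part from how they were picked. The value of Rpl31 was smaller with its pseudogenes added, as given below.

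The 3 members with the largest differences were Rpl5, Rpl10 and Rps12, and all had nearly identical copies elsewhere in the genome. Rpl5, which binds 5S rRNA and also the p53 regulator MDM2, had 86.9 and 96.7 CPM in Mmp3-positive cells, against 23.8 and 14.6 in Mmp3-negative cells. Its log2 fold change was 2.25 with a standard error of 0.37 (edgeR adjusted p = 0.48). Rps12, a protein of the beak of the small subunit, had 20.5 and 19.8 CPM in Mmp3-positive cells, against 88.5 and 69.5 in Mmp3-negative cells. Its log2 fold change was -1.97 with a standard error of 0.33 (edgeR adjusted p = 0.48). Rpl10, which joins the large subunit late in its assembly, had 45.9 and 58.9 CPM in Mmp3-positive cells, against 0.108 and 24.9 in Mmp3-negative cells, so its log2 fold change of 2.07 had a standard error of 1.70. Rps7, another small-subunit protein, was next among the low ones with 59.0 and 66.7 CPM in Mmp3-positive cells, against 129 and 83.1 in Mmp3-negative cells (log2 fold change -0.76, standard error 0.31).

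Stretches of 60 bases of coding sequence are shown from Rps12, Rpl5 and Rps7 and from the copies that drew most reads. Each is the stretch in which the copies together differed most from the member, so it is not a typical one. For Rps12, with no difference, it is the first stretch. Sequences are those of the annotated GRCm38 transcripts, 5′ to 3′, and capitals mark bases at which the member and the copies shown differ. Rps12 on chromosome 10 and its copies on chromosomes 19 and 7 were identical over all 396 coding bases. For each member the coding transcript with the highest mean TPM was used, which can be shorter than others of the gene. For Rpl5 the copy on chromosome 7 was identical and the copy on chromosome 2 differed at 8 of its 489 coding bases. For Rps7 the copy on chromosome X differed at 3 of 582 coding bases and the copy on chromosome 9 at 13 of 566.
Rps12: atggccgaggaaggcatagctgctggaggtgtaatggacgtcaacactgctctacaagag
Rps12-ps3: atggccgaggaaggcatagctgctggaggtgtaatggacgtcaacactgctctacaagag
Rps12l1: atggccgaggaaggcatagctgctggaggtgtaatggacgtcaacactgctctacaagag
Rpl5: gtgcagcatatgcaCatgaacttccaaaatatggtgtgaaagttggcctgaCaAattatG
Gm15500: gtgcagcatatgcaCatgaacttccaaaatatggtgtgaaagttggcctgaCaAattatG
Rpl5-ps2: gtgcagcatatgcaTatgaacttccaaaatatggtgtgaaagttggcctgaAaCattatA
Rps7: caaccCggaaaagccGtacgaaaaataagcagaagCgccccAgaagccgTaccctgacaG
Gm6472: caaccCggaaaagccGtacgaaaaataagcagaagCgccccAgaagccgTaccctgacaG
Gm28530: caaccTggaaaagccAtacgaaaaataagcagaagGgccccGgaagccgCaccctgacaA

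The division of reads between Rps12 and its copies differed between the groups while the sums overlapped. Rps12 (chromosome 10, 23785183 to 23787275) had 389 and 388 estimated counts in Mmp3-positive cells, against 1641 and 1206 in Mmp3-negative cells. Rps12-ps3, on chromosome 19 from 59322290 to 59322783, had the reverse pattern with 2335 and 1669 counts in Mmp3-positive cells, against 860 and 891 in Mmp3-negative cells; the annotation lists it as protein-coding. Rps12l1, on chromosome 7, had 0 counts in both Mmp3-positive libraries, against 134 and 405 in the Mmp3-negative libraries. With all 25 sequence-matched copies added, the sum was 2724 and 2340 counts in Mmp3-positive cells, against 2690 and 2502 in Mmp3-negative cells. The log2 fold change of the sum was -0.14 with a standard error of 0.21, against -1.97 for Rps12 alone.

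Rpl5 and its copies remained higher in Mmp3-positive cells after they were added up, but by much less. Rpl5 (chromosome 5, 107900502 to 107909005) had 1652 and 1900 counts in Mmp3-positive cells, against 442 and 254 in Mmp3-negative cells. Gm15500, its copy on chromosome 7 from 114705217 to 114706235, had 3372 and 2827 counts in Mmp3-positive cells, against 2153 and 2604 in Mmp3-negative cells. The sum with 14 copies was 5024 and 4727 counts in Mmp3-positive cells, against 2595 and 3012 in Mmp3-negative cells, and the 2 groups did not overlap. The log2 fold change of the sum was 0.69 with a standard error of 0.20 and missed the threshold (adjusted p = 0.482 in edgeR), against a log2 fold change of 2.25 for Rpl5 alone. The counts of Rpl5 were also divided differently among its transcripts: coding transcripts held 955 and 1093 counts in Mmp3-positive cells, against 0 and 4 in Mmp3-negative cells, and retained-intron transcripts held 697 and 807 in Mmp3-positive cells, against 442 and 251 in Mmp3-negative cells.

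Rpl10 and Rps7 also came closer to 0 when their copies were added. Rpl10 (chromosome X, 74270812 to 74273135) had 872 and 1157 counts in Mmp3-positive cells, against 2 and 431 in Mmp3-negative cells. Rpl10-ps3, a copy on chromosome 9 annotated as protein-coding, is identical over the 603 coding bases of the Rpl10 transcript used. It had 803 and 355 counts in Mmp3-positive cells, against 897 and 656 in Mmp3-negative cells. The sum with 19 copies was 2414 and 1720 counts in Mmp3-positive cells, against 1423 and 1177 in Mmp3-negative cells, a log2 fold change of 0.57 with a standard error of 0.28. Rps7 (chromosome 12, 28630854 to 28635953) had 1121 and 1311 counts in Mmp3-positive cells, against 2394 and 1441 in Mmp3-negative cells, and its copy Gm6472 on the X chromosome had 1142 and 1148 in Mmp3-positive cells, against 441 and 579 in Mmp3-negative cells. The sum with 26 copies had a log2 fold change of -0.19 with a standard error of 0.24, and the groups overlapped.

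**Figure D3:**
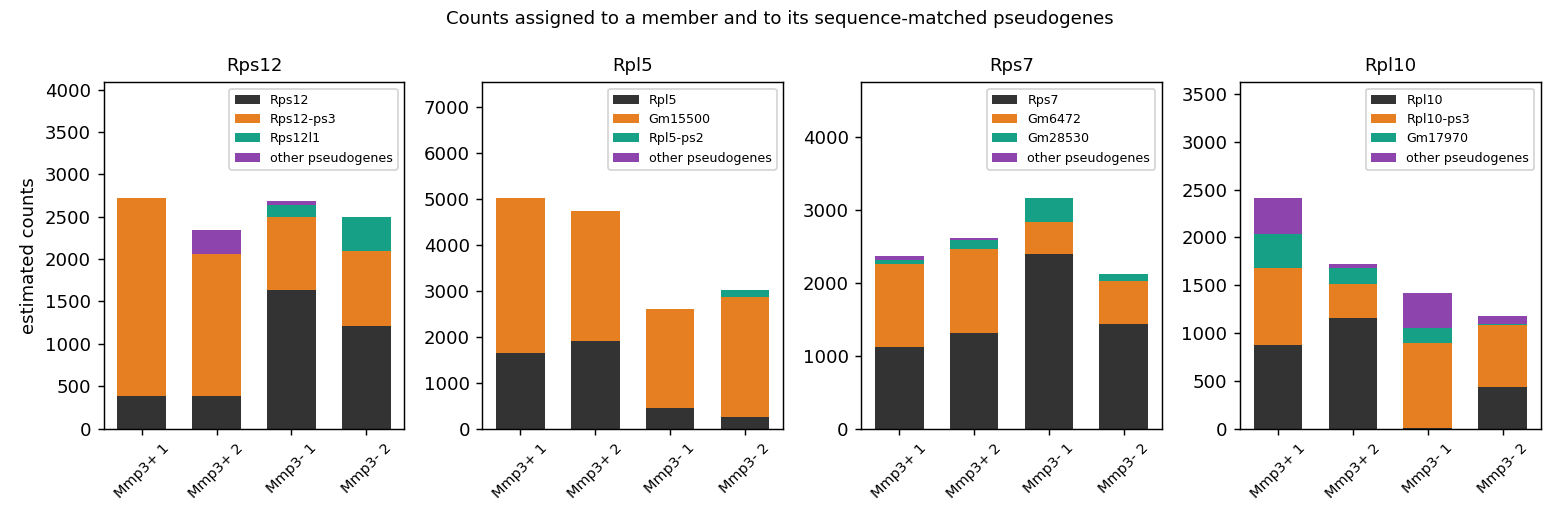
Estimated counts assigned to Rps12, Rpl5, Rps7 and Rpl10 (dark), to 2 named copies of each and to all other sequence-matched pseudogenes, stacked for the 4 libraries. For Rps12 the dark part is small in the Mmp3-positive libraries and large in the Mmp3-negative libraries while the stacks reach 2724 and 2340 in Mmp3-positive cells, against 2690 and 2502 in Mmp3-negative cells; for Rpl5 the stacks stay taller in Mmp3-positive cells.

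Across all members, 1498 annotated copies were matched by sequence, each to the member it resembled most. At least 1 was found for 81 of the 84 members, and Rpl7a had the most with 126; Rpl41, Rpl3l and Rpl39l had none. Words of 31 bases were taken from each member's coding transcript with the highest mean TPM. A median of 62.8% of a member's words also occurred in another gene, from 0% for Rpl3l to 99.0% for Rpl35, and 61 members shared more than 50%. Over the 80 tested members, Spearman's rho between this share and the size of the log2 fold change was -0.03, given as a description. The matched copies held 0.240% and 0.221% of all counts in Mmp3-positive cells, against 0.212% and 0.213% in Mmp3-negative cells. In 9 members the copies held more than 50% of the combined count: Rpl10, Rpl12, Rpl13, Rpl23a, Rpl27a, Rpl5, Rps12, Rps23 and Rps27a.

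After the copies were added, the log2 fold changes of the 80 members had an SD of 0.29, against 0.51 before. In 56 members the value moved by less than 0.1, and in 6 by more than 0.5: Rpl5, Rpl10, Rpl31, Rps12, Rps7 and Rps27a. The first 5 of these moved towards 0. Rpl31 came to 0.50 from 1.19, with Rpl31-ps8 on chromosome 15 holding 87 and 0 counts in Mmp3-positive cells, against 590 and 378 in Mmp3-negative cells. Rps27a, whose protein is made as a fusion with ubiquitin, moved to 0.63 from -0.23, with standard errors of 0.60 and 1.27. The median of the members was 0.23, against 0.24 before, and 42 of the 81 members tested in this fit had both Mmp3-positive libraries above both Mmp3-negative ones, where 22.4% of all genes did, while 2 had both below, where 17.3% did. In this fit edgeR called 0 members higher and 0 lower, where 0.00711% and 0.0142% of all genes were called, and 7 members were higher and 0 lower at an unadjusted p under 0.05, where 5.64% of all genes were higher and 3.26% lower. Those 7 were Rpl5, Rps24, Rpl22, Rps23, Rps4x, Rpl32 and Rpl13.

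**Figure D4:**
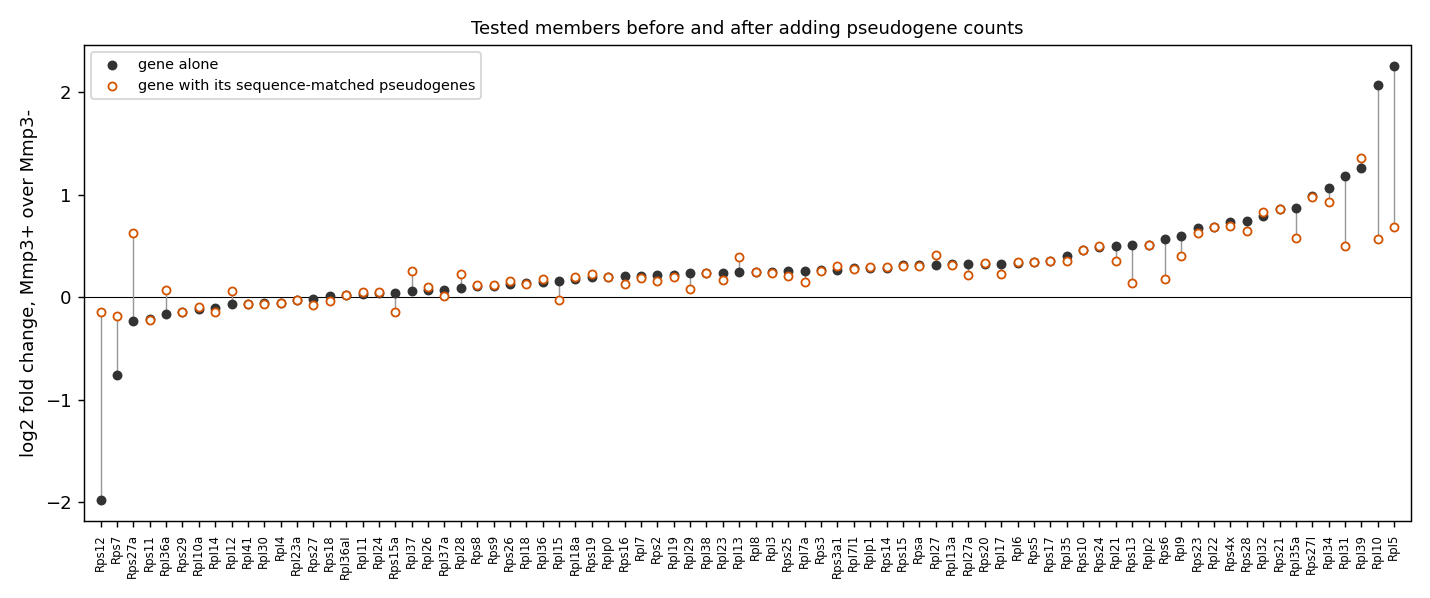
Log2 fold change, Mmp3-positive over Mmp3-negative, of each of the 80 tested members alone (filled) and together with its sequence-matched pseudogenes (open), ordered by the value alone. Lines join both values of a gene; Rps12 at -1.97 and Rpl5 at 2.25 mark the ends before pseudogenes are added and come to -0.14 and 0.69.

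Most copies drew no reads. Of 1524 pseudogenes linked to members by name or sequence, 1137 had 0 counts in every library and 124 passed the filter. With edgeR 0 of them passed the threshold. Of the 124, 21 had an unadjusted p under 0.05, where 8.87% of all genes did. The limma fit called 0, as it did over all genes. DESeq2 called 14 higher and 7 lower, where it called 5.46% of all genes higher and 4.18% lower. Among the 21 were copies with 0 counts in both libraries of a group, such as Rpl9-ps4 and Rps12l1. Such copies passed the filter only through the group where they were high, so these counts are not read as a result about the copies. The median log2 fold change of the 124 copies was 0.00, below that of the members. The 5 with most counts were Gm12918 (a copy of Rpl13), Gm7536 (Rpl27a), Gm15500 (Rpl5), Rps6-ps4 and Rps23-ps1, each identical to the member over the aligned stretch. Gm12918 had 6517 and 8076 counts in Mmp3-positive cells, against 5149 and 4185 in Mmp3-negative cells, while Rpl13 itself had 4461 and 4440 in Mmp3-positive cells, against 2816 and 4119 in Mmp3-negative cells. Rps23-ps1 had 2430 and 2926 counts in Mmp3-positive cells, against 2147 and 1201 in Mmp3-negative cells. Gm7536 had 3272 and 3492 counts in Mmp3-positive cells, against 3739 and 2584 in Mmp3-negative cells, and Rps6-ps4 had 1718 and 2494 in Mmp3-positive cells, against 2003 and 3040 in Mmp3-negative cells, so that these copies overlapped between the groups.

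A few members differed widely between replicates. Rps13 had 1091 and 968 counts in Mmp3-positive cells, against 7 and 1295 in Mmp3-negative cells. Rps27a had 817 and 257 counts in Mmp3-positive cells, against 1156 and 58 in Mmp3-negative cells. In each, the libraries of a single group differed more than the groups did. More than 2-fold between replicates was seen in 2 members in Mmp3-positive cells, Rpl7l1 and Rps27a, and in 10 in Mmp3-negative cells.

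Genes named as paralogs of a member were mostly near the detection limit. Rpl3l, the form of heart and skeletal muscle, had 0 counts in both Mmp3-positive libraries, against 70 and 0 in the Mmp3-negative libraries, while its parent Rpl3 had 878 and 817 CPM in Mmp3-positive cells, against 648 and 783 in Mmp3-negative cells. Rpl10l, a retrogene of the testis, had 0 counts in all 4 libraries. Rpl39l had 58 and 0 counts in Mmp3-positive cells, against 0 and 0 in Mmp3-negative cells, and Rpl22l1 had 3 and 232 counts in Mmp3-positive cells, against 0 and 9 in Mmp3-negative cells. In these 3 detected genes, 1 library held nearly all of the counts.

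The other paralogs were tested. Rpl36al, a retrocopy of Rpl36a that still makes a protein, had 62.9 and 55.7 CPM in Mmp3-positive cells, against 68.2 and 48.6 in Mmp3-negative cells, and Rpl36a itself had 42.7 and 40.3 CPM in Mmp3-positive cells, against 47.2 and 45.4 in Mmp3-negative cells. Rpl7l1 had 78.9 and 38.9 CPM in Mmp3-positive cells, against 33.7 and 63.2 in Mmp3-negative cells, beside 266 and 291 CPM in Mmp3-positive cells, against 239 and 243 in Mmp3-negative cells, for Rpl7. Rps27l, a target of p53, had 9.42 and 6.41 CPM in Mmp3-positive cells, against 0.216 and 7.78 in Mmp3-negative cells, beside 67.7 and 58.3 CPM in Mmp3-positive cells, against 35.4 and 92.3 in Mmp3-negative cells, for Rps27. Rpl26, listed with these for its human paralog, had 168 and 202 CPM in Mmp3-positive cells, against 159 and 194 in Mmp3-negative cells. Apart from Rpl36a, Rpl3 and Rpl7, the groups overlapped in these genes.

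Not all counts of a member came from transcripts that code for its protein. Coding transcripts held 76.7% and 76.1% of member counts in Mmp3-positive cells, against 74.9% and 76.8% in Mmp3-negative cells. Transcripts annotated as retaining an intron held 12.7% and 12.9% in Mmp3-positive cells, against 12.9% and 12.4% in Mmp3-negative cells. The groups did not separate in either class. Over other protein-coding genes retained-intron transcripts held a smaller share in all 4 libraries, 8.58% and 8.44% in Mmp3-positive cells, against 9.26% and 8.73% in Mmp3-negative cells. In 16 members more than 50% of the counts lay outside coding transcripts, Rpsa, Rpl10a, Rpl13a and Rpl14 among them. On retained-intron transcripts Rpl10a had 5250 and 6006 counts in Mmp3-positive cells, against 7220 and 5624 in Mmp3-negative cells. On coding transcripts it had 0 and 306 in Mmp3-positive cells, against 50 and 6 in Mmp3-negative cells.

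The start regions of members were searched for the letters of the TOP motif in RefSeq promoter windows on GRCm38.p6, from 250 bases before to 50 bases after each start. Windows were given for 64 of the 84 members, 76 in all. A C followed by at least 5 pyrimidines, beginning within 5 bases of the start on the gene's strand, was found in 35.5% of the members' windows and in 10.2% of all 32851 windows. CCGGAAG, a core bound by ETS factors, was found on either strand in 35.5%, against 8.86% of all windows, and AAGATGGC, a core of the YY1 motif, in 10.5%, against 2.75% of all windows. A window can hold more than 1 of these, and a match is not a shown binding site. Stretches are printed from 50 bases before to 15 bases after the start. They come from 3 genes with the tract and a pair without it within 5 bases of the start. The whole pyrimidine run that holds the match is in capitals. Rplp2 was taken as the most abundant member, Rpl31 and Rps24 as members with small p, and Rpsa and Rps12 for comparison. In Rps12 a run of the same form, ccttttc, ends the printed stretch and begins beyond the 5 bases searched. The stretches lie at chr7:141447601-141447665, chr1:39367801-39367865 and chr14:24490628-24490692 on the plus strand, at chr9:120127716-120127780 on the plus strand and at chr10:23787195-23787259 on the minus strand.
Rplp2: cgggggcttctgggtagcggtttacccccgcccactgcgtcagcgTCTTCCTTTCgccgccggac
Rpl31: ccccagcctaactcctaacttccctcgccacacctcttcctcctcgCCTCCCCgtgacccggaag
Rps24: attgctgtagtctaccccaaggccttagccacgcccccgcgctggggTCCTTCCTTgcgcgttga
Rpsa: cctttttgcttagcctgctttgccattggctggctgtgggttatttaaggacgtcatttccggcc
Rps12: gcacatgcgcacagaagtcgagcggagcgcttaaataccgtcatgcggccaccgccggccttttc

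With edgeR no gene of the other lists linked to the ribosome was called either. Of 35 translation factors 0 were higher and 0 lower with edgeR, and the median log2 fold change was 0.08. At an unadjusted p under 0.05, 1 was higher, where 5.62% of all genes were, and DESeq2 called 1 higher, where it called 5.46%. The most abundant were Eef1a1, which brings aminoacyl-tRNA to the ribosome, with 2134 and 1972 CPM in Mmp3-positive cells, against 1730 and 1967 in Mmp3-negative cells, and Eef2, which drives translocation, with 1902 and 1918 in Mmp3-positive cells, against 1716 and 1904 in Mmp3-negative cells. Of 44 ribosome biogenesis factors, with a median of 0.07, 0 were called by edgeR or DESeq2. An unadjusted p under 0.05 was found for 0 of them, where 8.87% of all genes had one. Ncl, which encodes nucleolin, had 1116 and 1036 CPM in Mmp3-positive cells, against 847 and 1061 in Mmp3-negative cells, and Noc2l had 587 and 498 in Mmp3-positive cells, against 590 and 597 in Mmp3-negative cells. Against these medians and that of all genes, 0.02, the members' median of 0.24 was higher, but the difference between lists was not tested.

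RNA polymerase I, which transcribes the ribosomal RNA precursor, had the highest median of these lists. Over 15 genes it was 0.40, 14 were positive, where 51.1% of all genes were, and 0 passed edgeR's threshold. At an unadjusted p under 0.05, 2 were higher, where 5.62% of all genes were. DESeq2 called 2 higher and 1 lower, where it called 5.46% and 4.18% of all genes. Of the 2 at the unadjusted p, Polr1e had 567 and 545 counts in Mmp3-positive cells, against 1 and 8 in Mmp3-negative cells. Ubtf, the upstream binding factor of RNA polymerase I, had 377 and 393 CPM in Mmp3-positive cells, against 260 and 323 in Mmp3-negative cells, and Taf1d had 235 and 271 in Mmp3-positive cells, against 197 and 231 in Mmp3-negative cells. Of 20 tested genes of mTOR signalling to TOP mRNAs and of the MYC network, 0 passed, and the median was 0.12. There were 2 higher at an unadjusted p under 0.05, where 5.62% of all genes were, and DESeq2 called 2 higher, where it called 5.46%. Myc, a transcription factor that drives ribosome production, had 579 and 673 CPM in Mmp3-positive cells, against 416 and 604 in Mmp3-negative cells, and Larp1, which binds the TOP motif, had 525 and 484 in Mmp3-positive cells, against 548 and 529 in Mmp3-negative cells.

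Proteins of the mitochondrial ribosome, a separate set made from nuclear genes, were more scattered, in a comparison not matched for abundance. Of 77 tested, 0 passed with edgeR, and the median was 0.15. At an unadjusted p under 0.05, 4 were higher, where 5.62% of all genes were, and DESeq2 called 4 higher, where it called 5.46%. Of the 4 at the unadjusted p, Mrpl14, Mrpl53 and Mrps33 had at most 1 count in each Mmp3-negative library. Mrpl52 had 101 and 151 CPM in Mmp3-positive cells, against 58.3 and 87.1 in Mmp3-negative cells, and Mrps26 had 89.2 and 105 in Mmp3-positive cells, against 57.8 and 88.3 in Mmp3-negative cells. Of 13 snoRNA host genes with TOP transcripts, only 6 were among the genes quantified, without Gas5 or any Snhg gene. All 6 also stand in another list, so this is not a separate set. They were tested, with a median of 0.22. Of these, 0 were called by edgeR or DESeq2 and 0 had an unadjusted p under 0.05, where 8.87% of all genes did. The most abundant were Eif4a1, with 1488 and 1176 CPM in Mmp3-positive cells, against 1057 and 985 in Mmp3-negative cells, and Ncl. Neither Rack1 nor Fau, which the name rule leaves out, was called by edgeR. Rack1, a scaffold on the small subunit, had 537 and 450 CPM in Mmp3-positive cells, against 408 and 468 in Mmp3-negative cells, and Fau, whose product is cleaved to a small-subunit protein, had 277 and 249.6 in Mmp3-positive cells, against 265 and 292 in Mmp3-negative cells. In limma on log2(TPM + 1) 0 genes of any of these lists were called, as were 0 of all genes tested.

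**Figure D5:**
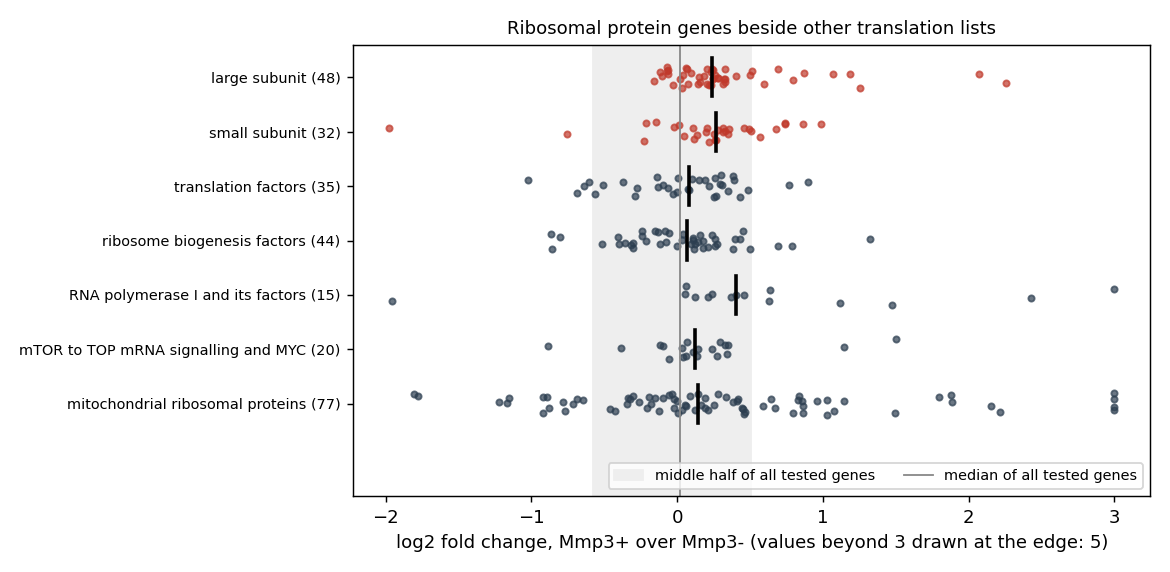
Log2 fold change, Mmp3-positive over Mmp3-negative, of each tested gene in the large and small subunit and in 5 other lists, with the number tested in brackets; black bars are list medians, the grey band holds the central 50% of all tested genes and the grey line is their median. Members of both subunits cluster tightly around 0.24 and 0.27, mitochondrial ribosomal proteins are spread more widely around 0.15, and 5 values beyond 3 are drawn at the edge.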

How the data were processed

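Ribosomal protein genes were compared between Mmp3-positive and Mmp3-negative cells, 2 libraries each. Per the submitters' processing notes, kallisto 0.45.0 quantified the reads and GRCm38 was the genome build. Per the labels' protocols, strand-specific libraries were made from total RNA after depletion of ribosomal RNA, with a kit intended for formalin-fixed tissue. The transcript index, its word length, the strand setting and any trimming are not given in the sources used here. The deposited tables held an estimated count and a TPM value for each of 115270 transcripts, per the file headers, beside an effective length. kallisto divides reads among similar transcripts, so values of genes with near-identical copies are uncertain, and the estimates carry an error beyond counting.

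Unversioned transcript identifiers were looked up in the GENCODE M21 annotation of GRCm38, and 1690 of them, with 0.809% and 0.995% of counts in Mmp3-positive and 2.08% and 0.729% in Mmp3-negative libraries, were not found and were left out. Gene counts are rounded sums of the estimated counts over transcripts. After filterByExpr (minimum count 10) and TMM scaling, genes were tested two-sided with edgeR 4.0.16 (R 4.3.3) without a covariate, which left 2 residual degrees of freedom. Standard errors are log2 fold changes divided by the root of F. Alternatives included DESeq2 1.42.0 and limma 3.58.1 on log2(TPM + 1) or log2(TPM + 0.1), a scale that understates the change of low genes. The tests were tried on simulated data.

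Pseudogenes were joined to members by name or by sequence (blastn 2.17.0, at least 85% identity over at least 100 bases and 50% of the pseudogene), and words of 31 bases were compared between genes. Promoter windows are RefSeq's on GRCm38.p6; the 20 members without one were not searched. Sums were made in pandas 2.3.3 (Python 3.11.15) and plots in matplotlib 3.10.9.

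Named members were Rpsa and the stalk genes, per subunit the 4 with the highest mean TPM and the 3 highest and 3 lowest log2 fold changes, the 6 with the smallest p, and paralogs with their parents. For pseudogenes the 5 with most counts were named, and for other lists the 2 with the highest mean count. The summary of 1 other list is not reported here. Rps13, Rpl21, Rpl32, Rpl13, Rps23, the members listed with large pseudogene shares, and the copies of Rps12, Rpl5, Rps7, Rpl10 and Rpl31 were named after their values were seen. The same holds for Polr1e, Mrpl14, Mrpl53 and Mrps33. The members and lists were chosen with earlier results of these data known, and the shares with sequence-matched pseudogenes were added after seeing the data. The numbers were not taken as pairs in the main test. Deviations of libraries with the same number correlated at 0.03 over both groups, which with 2 numbers cannot decide whether they are pairs.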

Additional observations from a re-analysis of the deposited data

How the results depend on the processing

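The results rest on 2 libraries per group and 2 residual degrees of freedom, and on reads that fit several genes. The members' excess over all genes also depends on which Mmp3-negative libraries are kept. It was 0.22 with all 4 libraries and 0.14 without Mmp3-negative replicate 2. Without Mmp3-negative replicate 1 it was 0.03, mostly through the median of all genes. With edgeR the counts of called members stayed at 0 higher and 0 lower under DESeq2 size factors, no count filter, the length offset, protein-coding genes only, coding transcripts only and both ways of adding pseudogenes. With the library number as a replicate block the counts were also 0 and 0, with medians of 0.26 over all, 0.24 over large-subunit and 0.30 over small-subunit members; the block changed no call of a named member, and there were only 2 numbers, so pairing could not be judged further. DESeq2's Wald test called 5 higher and 1 lower, where it called 5.46% of all genes higher and 4.18% lower. Calls made with an Mmp3-negative library left out are given above. The cause of these calls was not tested. The limma fits gave medians of 0.517 on log2(TPM + 1), 0.518 without a filter and 0.518 on log2(TPM + 0.1), with 0.496, 0.504 and 0.496 for the large and 0.570, 0.570 and 0.572 for the small subunit, while the median of all genes was 0.29, 0.24 and 0.37 there, so that the members' excess was 0.23, 0.28 and 0.15. Shares of TPM gave a ratio of 1.37, with 1.36 for the large and 1.40 for the small subunit. Leaving out single libraries gave medians of 0.20 to 0.31 over all, 0.16 to 0.30 over large-subunit and 0.23 to 0.33 over small-subunit members, and ratios of count shares of 1.15 to 1.20, 1.13 to 1.20 and 1.15 to 1.23.

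Of the named members, 11 changed sign under at least 1 alternative, and all 11 did so under at least 1 besides the limma and DESeq2 settings. Those settings moved the median of all genes, to 0.29, 0.24 and 0.37 with limma and to -0.03 with DESeq2, so that a change of sign there can be part of a shift shared by all genes. With the 3 limma fits, in the order log2(TPM + 1), no filter and log2(TPM + 0.1), Rpl36a was 0.279, 0.279 and 0.281, Rpl10a 0.261, 0.261 and 0.262, Rpl14 0.0968, 0.0968 and 0.0970, Rps27a 1.04, 1.04 and 1.10, and Rps27 0.317, 0.317 and 0.318. With the length offset Rpl36a was 0.0205, Rpl10a 0.0197, Rpl7l1 -0.110 and Rpl36al -0.0108. With coding transcripts only Rpsa was -0.144, Rpl28 -0.0803, Rpl36a 0.316, Rpl10a 2.31, Rpl14 1.11 and Rpl36al -0.00846. With named pseudogenes added Rpl36a was 0.0727 and Rps12 0.0200, and with sequence-matched ones Rpl36a was 0.0730 and Rps27a 0.629. Under DESeq2 size factors and the Wald test Rpl36al was -0.0235 and -0.0236. With the replicate block Rps27a was 0.692 and Rps27 0.135. Leaving out single libraries gave ranges of -0.0693 to 0.27 for Rpl28, -0.32 to 0.15 for Rpl14, -1.33 to 3.06 for Rps27a, -0.31 to 0.81 for Rpl7l1, -0.20 to 0.28 for Rpl36al, -0.0722 to 0.22 for Rpl26 and -0.56 to 0.83 for Rps27. Each of these had an overlap between the groups or a difference below its standard error with all 4 libraries, except Rpsa and Rps12.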

Other observations

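Some pseudogenes of ribosomal protein genes drew reads in single libraries or in a single group; they were picked after their values were seen and are given as values. Rpl9-ps6 had 0 and 0 counts in Mmp3-positive cells, against 13 and 1258 in Mmp3-negative cells, while Rpl9-ps4, another copy of the same gene, had 472 and 297 in Mmp3-positive cells, against 0 and 0 in Mmp3-negative cells. Rpl15-ps3 had 883 and 0 counts in Mmp3-positive cells, against 805 and 22 in Mmp3-negative cells, and Gm14303 had 0 and 464 in Mmp3-positive cells, against 0 and 443 in Mmp3-negative cells, so that both followed the number of the library rather than the group. Of 158 copies with a mean count of at least 20, 115 had under 1 count in at least 1 library.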
